A study of Homo sapiens with 12 samples.

Results

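The transcripts of 8 genes that set the phosphorylation of the translation factor eIF2alpha were followed in human prostate cancer cell lines treated with pentamidine. The genes were the kinases EIF2AK1, EIF2AK2, EIF2AK3 and EIF2AK4, the phosphatase subunits PPP1R15A and PPP1R15B, the mitochondrial protease OMA1, and EIF2S1, which encodes eIF2alpha itself. They were taken by gene name from the deposited read-count table, where each of the 8 was found among 32077 genes, and all 8 passed the filter on low counts in every comparison. RNA-seq was carried out on cells labelled PC3 and DU145, established lines from metastatic prostate cancer that grow without androgen, each annotated as wild type. Cells of both lines were kept for 48 hours in medium with 2.5 μmol/L pentamidine, an antiprotozoal diamidine, or in medium with vehicle (sterile water in the study's methods). Each of the 4 groups had 3 samples, 12 in all. The labels do not say whether the samples of a group came from separate cultures, so the p-values measure only the spread between these samples, which may be technical.

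Phosphorylation of eIF2alpha slows the start of translation and lets the transcription factor ATF4 be translated. Each kinase answers a different stress: EIF2AK1 (HRI) senses a lack of haem and signals from damaged mitochondria, EIF2AK2 (PKR) senses double-stranded RNA, EIF2AK3 (PERK) senses unfolded protein in the endoplasmic reticulum, and EIF2AK4 (GCN2) senses uncharged tRNA. PPP1R15A (GADD34, inducible) and PPP1R15B (CReP, constitutive) bring protein phosphatase 1 to eIF2alpha and remove the phosphate. OMA1 cleaves DELE1 in stressed mitochondria, and cleaved DELE1 activates EIF2AK1. The values below are transcript levels. Phosphorylation and kinase activity were not measured in these files.

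Total counts were 13514195 to 15131436 per sample. The share of counts on mitochondria-encoded genes was 3.79% to 3.91% in vehicle-treated and 2.66% to 2.76% in pentamidine-treated PC3 cells, and 4.41% to 4.66% in vehicle-treated and 1.97% to 2.07% in pentamidine-treated DU145 cells. The markers chosen to check the labels did not all follow them. EPCAM, an epithelial surface protein, had 0 to 2 counts in all 12 samples. KRT8, a keratin of simple epithelia, stood at 20.2 ± 1.51 CPM (reads of a gene per 1000000 reads of the sample) in vehicle-treated cells labelled PC3 and 2710 ± 89.4 in vehicle-treated cells labelled DU145 (SD, n = 3), and KRT18 at 155 ± 14.2 and 915 ± 23.7 CPM. Of markers looked up after these values were seen, CDH1 had 0 to 10 and KRT19 0 to 3 counts. VIM, a mesenchymal filament, was high in both lines (353 ± 26.4 and 319 ± 6.67 CPM with vehicle). The prostate gene KLK3 (0 to 2 counts), the leukocyte gene PTPRC (0 to 1) and the endothelial gene PECAM1 (0 to 10) were near 0. KLK3 is low or absent in prostate lines that grow without androgen, so its low count was not at odds with the labels. PC3 and DU145 below are therefore the labels of the samples, and their identity was not settled here. What this means for the members was not tested.

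PPP1R15A was the member that moved most. Upon pentamidine treatment it rose 3.01-fold in PC3 cells, whereas in DU145 cells its log2 fold change was 0.06 and did not pass the test. Vehicle-treated PC3 cells had 427, 396 and 416 reads of PPP1R15A and pentamidine-treated PC3 cells had 1231, 1279 and 1203. In CPM, scaled with edgeR's TMM factors, this was 28.4 ± 2.55 against 85.1 ± 5.17 (SD, n = 3). The lowest treated sample, at 81.3 CPM, was far above the highest vehicle sample, at 30.7 CPM. The log2 fold change was 1.59 with a standard error of 0.08 (edgeR's quasi-likelihood test, Benjamini-Hochberg adjusted p = 2.48e-11), and its size ranked 219 among the 13861 genes tested. In bulk RNA, more transcript per cell and more cells of a kind that holds the transcript cannot be told apart.

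In DU145 cells PPP1R15A had 590, 664 and 671 reads with vehicle and 676, 730 and 641 with pentamidine, and the groups overlapped in CPM (45.6 ± 1.37 against 47.5 ± 2.61). The log2 fold change of 0.06 did not pass the test (adjusted p = 0.444), and its 95% interval ran from -0.06 to 0.18. The response in PC3 cells exceeded that in DU145 cells by 1.53 on the log2 scale, with a standard error of 0.10 (interaction term over the 12 samples, adjusted p = 2.56e-12). The starting levels differed as well. Vehicle-treated PC3 cells held less PPP1R15A than vehicle-treated DU145 cells, by 0.71 on the log2 scale (log2 fold change -0.71, standard error 0.08, adjusted p = 4.51e-07). The order of the 4 groups was therefore pentamidine-treated PC3, pentamidine-treated DU145, vehicle-treated DU145 and vehicle-treated PC3, and only the middle pair overlapped. The comparison of the vehicle groups and the response of each line share the vehicle samples.

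**Figure D1:**
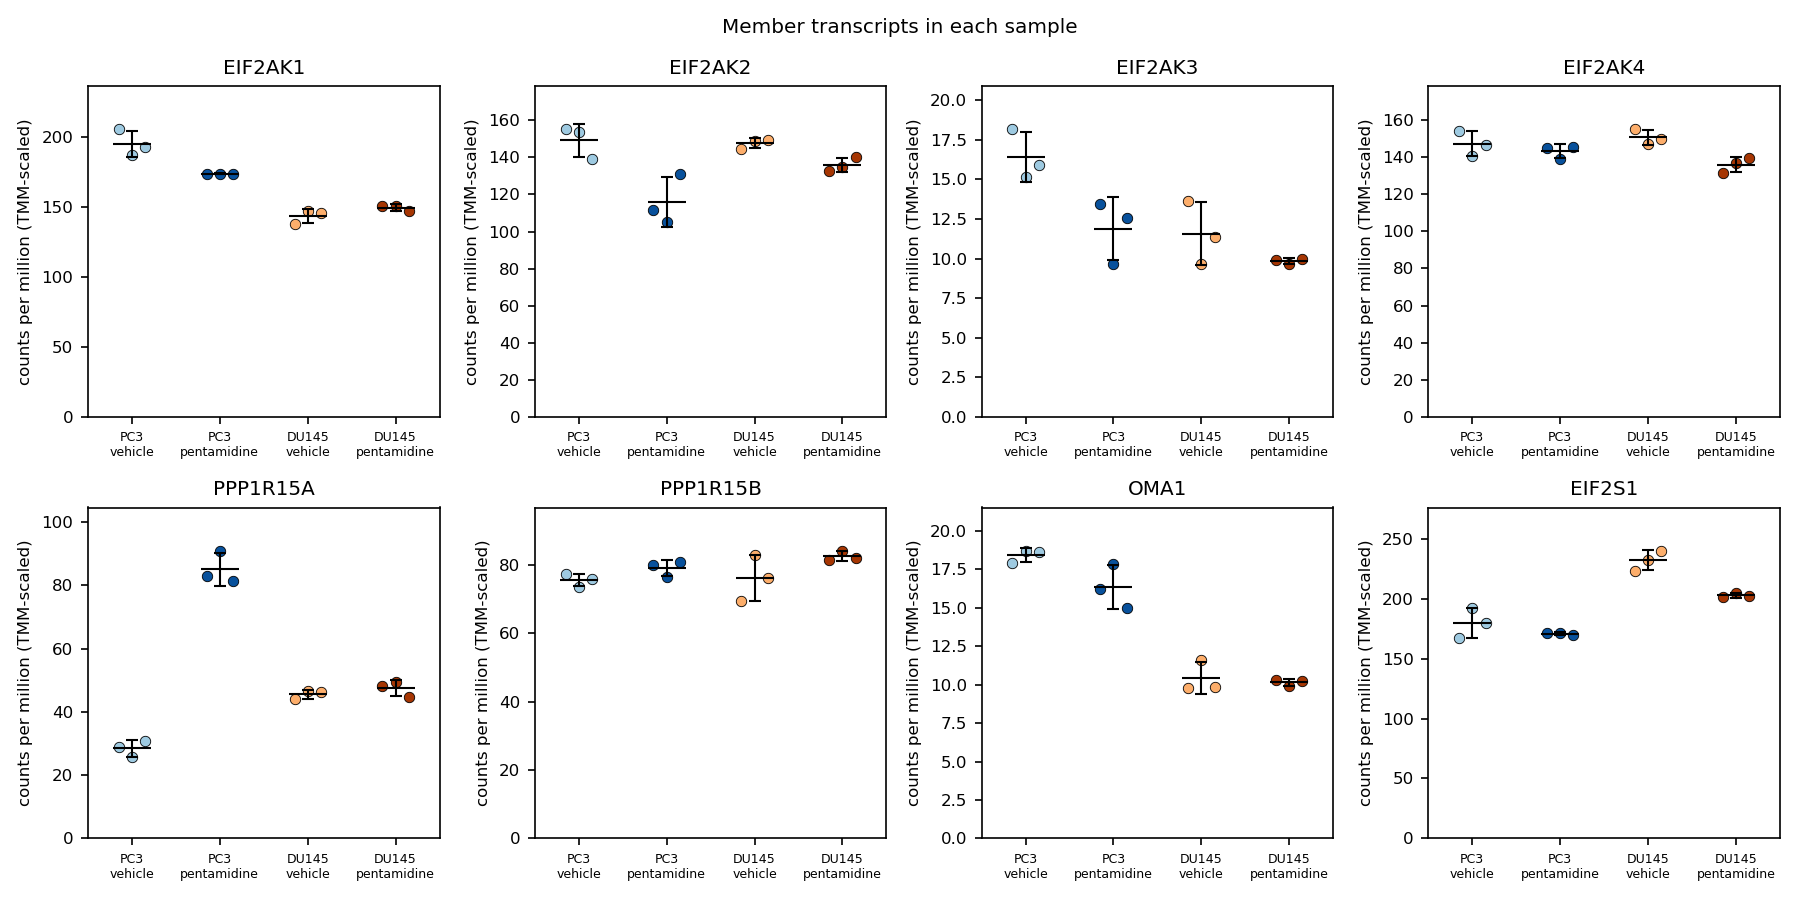
TMM-scaled CPM (y axis, from 0, a separate scale in each panel) of the 8 transcripts in the 12 samples. Points are samples, and the bars give the mean and SD of the 3 samples of a group. PPP1R15A in pentamidine-treated PC3 cells stands at 81.3 to 91.0 CPM, above the other 9 samples, which lie between 25.7 and 49.6.

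The bases before the PPP1R15A gene are shown because it was the member that passed a log2 fold change of 1. PPP1R15A (ENSG00000087074) lies on chromosome 19 at 48872392 to 48876057, plus strand (GRCh38). RefSeq's promoter table (GRCh38.p14) holds windows of 300 bases, from 250 before to 50 after the start, for 7 of the 8 members. The part of its window upstream of the gene as the count table places it, chr19:48872171-48872391, is given 5′ to 3′ on the plus strand. Capitals mark TGACGTCA, a cAMP response element, the palindrome bound by factors of the CREB and ATF family.
PPP1R15A upstream: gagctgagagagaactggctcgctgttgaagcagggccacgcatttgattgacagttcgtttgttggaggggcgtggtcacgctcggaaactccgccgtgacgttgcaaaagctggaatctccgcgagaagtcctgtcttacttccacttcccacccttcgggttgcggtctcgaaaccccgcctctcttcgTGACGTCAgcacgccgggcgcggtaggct

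The element lies 58 to 51 bases before the RefSeq start site. It was looked for after the sequence had been read, and 1.98% of the 27305 promoters in the table hold it. Searched on both strands, the full window held none of 3 other motifs, namely the C/EBP-ATF composite TGATGNAA (in 3.67% of all promoters), the ER stress element (CCAAT, 9 other bases, CCACG, in 0.0806%) and the interferon element core (GAAA, 2 other bases, GAAA, in 3.65%). The window of PPP1R15B, whose level moved little, holds the composite motif as TGATGCAA, 227 to 220 bases before its start. That of EIF2AK2 holds the interferon element core as GAAAACGAAA, from base -6 to base 4 around its start. These matches describe the letters in the windows only.

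PPP1R15B, the constitutive partner, stayed close to its vehicle level in both lines. It had 1139, 1136 and 1029 reads in vehicle-treated and 1184, 1075 and 1198 reads in pentamidine-treated PC3 cells. The treated PC3 samples were higher by 0.07 on the log2 scale (95% interval -0.05 to 0.19, adjusted p = 0.326). In DU145 cells it had 931, 1184 and 1105 reads with vehicle and 1141, 1240 and 1179 with pentamidine, a log2 fold change of 0.12 (0.02 to 0.22) that missed the threshold (adjusted p = 0.0605). The level of PPP1R15B with vehicle was 75.6 ± 1.84 CPM in PC3 and 76.2 ± 6.77 CPM in DU145 cells, a log2 difference of -0.04 (-0.17 to 0.10, adjusted p = 0.635).

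The ratio of both subunits within a sample needs no scaling between libraries. In vehicle-treated PC3 cells it was 0.375, 0.349 and 0.404 reads of PPP1R15A per read of PPP1R15B. With pentamidine it was 1.04, 1.19 and 1.00, so that the inducible subunit came from the lesser to the slightly greater number of reads. The ratio rose 2.86-fold, with no overlap between the groups (exact permutation test, two-sided, p = 0.10, the smallest that 3 against 3 samples allow). In DU145 cells it was 0.601 ± 0.037 with vehicle and 0.575 ± 0.027 with pentamidine, with overlapping groups (exact permutation test, two-sided, p = 0.40, n = 3). Per kilobase of exon, where PPP1R15A counts for more since its exons are shorter (2378 against 5227 bases), the ratio was 0.826 ± 0.061 and 2.37 ± 0.217 in PC3 cells and 1.32 ± 0.081 and 1.26 ± 0.060 in DU145 cells (SD, n = 3).

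**Figure D2:**
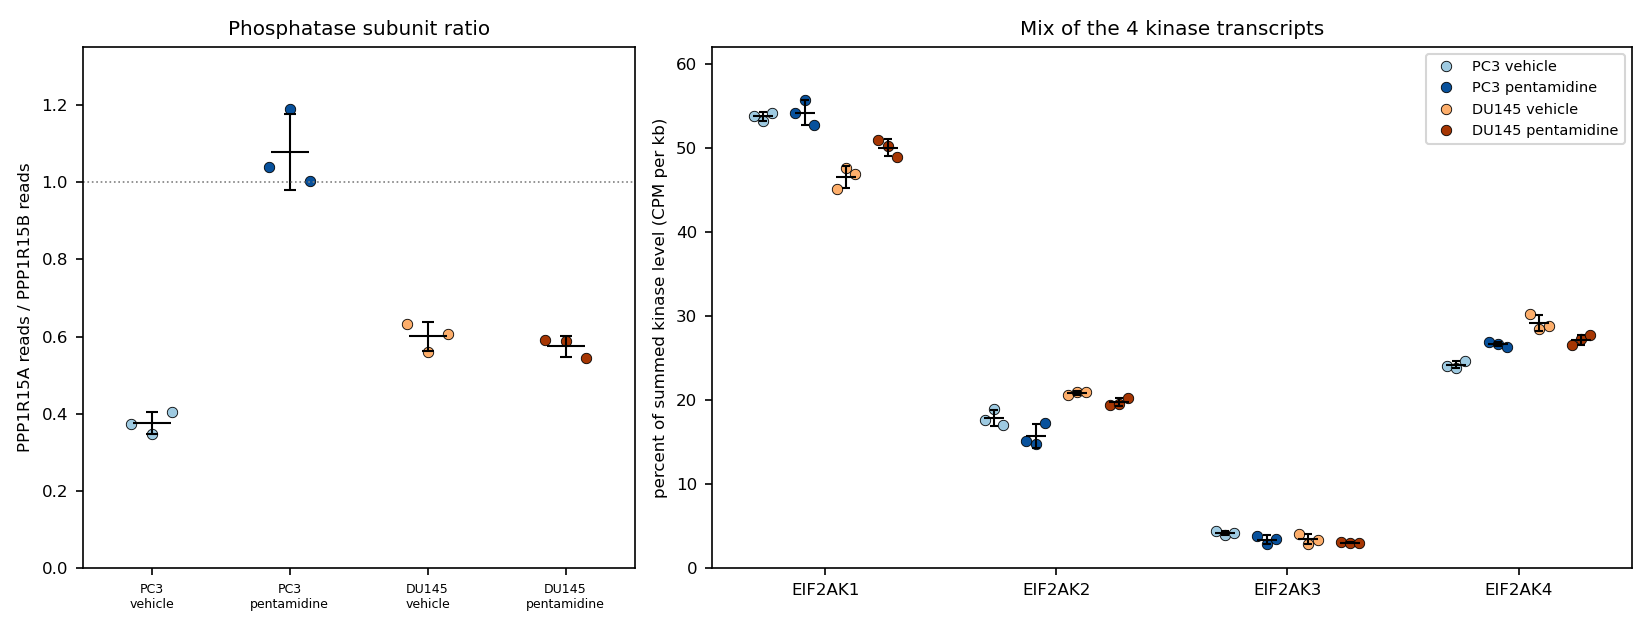
Left, reads of PPP1R15A per read of PPP1R15B in each sample, with a dotted line at 1. Right, the share of each kinase in the summed level of the 4 kinases (CPM per kilobase of exon, percent). Points are samples and bars the mean and SD of 3 samples. The ratio passes 1 in the 3 pentamidine-treated PC3 samples (1.00 to 1.19), while EIF2AK1 makes up 46.5% to 54.2% of the kinase sum in the group means.

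Among the kinases no transcript rose in edgeR's test with TMM scaling. In PC3 cells EIF2AK3, EIF2AK2 and EIF2AK1 fell, and in DU145 cells EIF2AK4 and EIF2AK2 fell, each by less than 0.5 on the log2 scale. Together with PPP1R15A this made 1 of 8 members higher and 3 of 8 lower in PC3 cells, where 21.7% of the genes tested passed the test as higher and 21.7% as lower, and where 1 of 8 was past a log2 fold change of 1 against 4.75% of all genes. In DU145 cells no member rose and 3 of 8 fell, against 17.2% of genes higher and 16.8% lower, and none passed a log2 fold change of 1, against 2.03% of genes. At an unadjusted p below 0.05, edgeR had 1 member higher in DU145 cells, PPP1R15B. At an adjusted p below 0.05, DESeq2 called no member higher in DU145 cells. At that same adjusted threshold limma on log2(CPM + 1), scaled by library size alone, called 2. The median log2 fold change of the 8 members was -0.12 in PC3 and -0.08 in DU145 cells, beside 0.0046 and 0.0085 over all genes tested.

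EIF2AK3, the sensor of the endoplasmic reticulum, was the least abundant kinase. It had 268, 234 and 216 reads in vehicle-treated and 199, 136 and 186 in pentamidine-treated PC3 cells, where each treated sample was below each vehicle sample in CPM (16.4 ± 1.57 against 11.9 ± 1.97). The log2 fold change was -0.46, with a standard error of 0.13 (adjusted p = 0.00688). In DU145 cells it had 183, 138 and 165 reads with vehicle and 139, 142 and 143 with pentamidine. The log2 fold change there was -0.22 (95% interval -0.47 to 0.02, adjusted p = 0.156), and the difference between the lines in the response was -0.23 (-0.61 to 0.14, adjusted p = 0.417). Without the second vehicle sample of DU145, which was the lowest of its group, the DU145 value was -0.34 and passed (adjusted p = 0.0406). An antisense gene, AC104134.1, shares 781 bases or 16.2% of its exon length but had only 0 to 9 counts.

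EIF2AK2, the sensor of double-stranded RNA, had 2289, 2370 and 1884 reads in vehicle-treated and 1650, 1481 and 1943 in pentamidine-treated PC3 cells. The third treated sample, at 131 CPM, was nearest to the lowest vehicle sample, at 139 CPM. Its log2 fold change in PC3 cells was -0.36, with a standard error of 0.07 (adjusted p = 0.000569). In DU145 cells the level went from 148 ± 2.65 to 136 ± 3.87 CPM, a log2 fold change of -0.12 with a standard error of 0.04 (adjusted p = 0.0157). This call was lost in 8 of 18 alternatives: a threshold of 0.01, library size alone, both limma fits, all 12 samples in one fit, and the fits without the third vehicle sample or the first or second pentamidine sample of DU145 (adjusted p up to 0.198). The response in PC3 cells was lower than that in DU145 cells by a margin near the threshold (-0.24, standard error 0.08, adjusted p = 0.0405). DESeq2 did not call this difference (adjusted p = 0.0639), nor did RLE scaling (adjusted p = 0.0545). It was also lost, with adjusted p of 0.0505 to 0.155, without any of the 6 DU145 samples, without the second vehicle sample of PC3, and without the first or second pentamidine sample of PC3.

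EIF2AK1, the sensor downstream of OMA1 and DELE1, fell in PC3 cells, and its response differed between the lines. It had 3031, 2890 and 2611 reads with vehicle and 2573, 2435 and 2572 with pentamidine, or 195 ± 9.41 against 174 ± 0.288 CPM. The log2 fold change was -0.16, with a standard error of 0.05 (adjusted p = 0.0134). It no longer passed without the first pentamidine sample of PC3 (adjusted p = 0.0527), and relative to ACTB, which itself fell by 0.20 on the log2 scale, the value was 0.03. In DU145 cells EIF2AK1 had 1848, 2094 and 2117 reads with vehicle and 2108, 2222 and 2115 with pentamidine, a log2 fold change of 0.06 (-0.01 to 0.14, adjusted p = 0.204). The response differed between the lines by -0.23, with a standard error of 0.06 (adjusted p = 0.00884), and this difference passed in all 22 alternatives, with adjusted p between 0.000736 and 0.0435. AIMP2, on the opposite strand, shares 532 bases or 11.9% of the EIF2AK1 exons. Since the use of strand in counting is not given, reads there cannot be told apart, and in the PC3 comparison AIMP2 itself was at -0.05 on the log2 scale (adjusted p = 0.589).

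EIF2AK4, the sensor of uncharged tRNA, was the steadiest kinase in PC3 cells, with 2274, 2171 and 1990 reads with vehicle and 2148, 1954 and 2156 with pentamidine (log2 fold change -0.03, 95% interval -0.14 to 0.07, adjusted p = 0.626). In DU145 cells it went from 2080, 2101 and 2178 to 1842, 2018 and 2006 reads. This was 151 ± 4.02 against 136 ± 3.98 CPM, a log2 fold change of -0.14 with a standard error of 0.04 (adjusted p = 0.00301), and the groups did not overlap. The interaction was 0.11 (-0.02 to 0.24, adjusted p = 0.261), so a different response of EIF2AK4 in the lines was not shown.

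The small changes in DU145 cells depended on the scaling. TMM factors were 0.973 to 0.976 in vehicle-treated and 1.01 to 1.02 in pentamidine-treated DU145 samples. With library size alone, EIF2AK2 (log2 fold change -0.07, adjusted p = 0.191) and EIF2AK4 (-0.09, adjusted p = 0.0593) no longer passed, whereas EIF2AK1 (0.11, adjusted p = 0.0175) and PPP1R15B (0.17, adjusted p = 0.00688) then passed as higher. Both limma fits, which were also scaled by library size alone, made the same 4 changes of call. Leaving mitochondria-encoded genes out of the TMM factors changed none of the DU145 calls. The second vehicle sample decided the count as well, since 5 of 8 members passed without it.

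**Figure D3:**
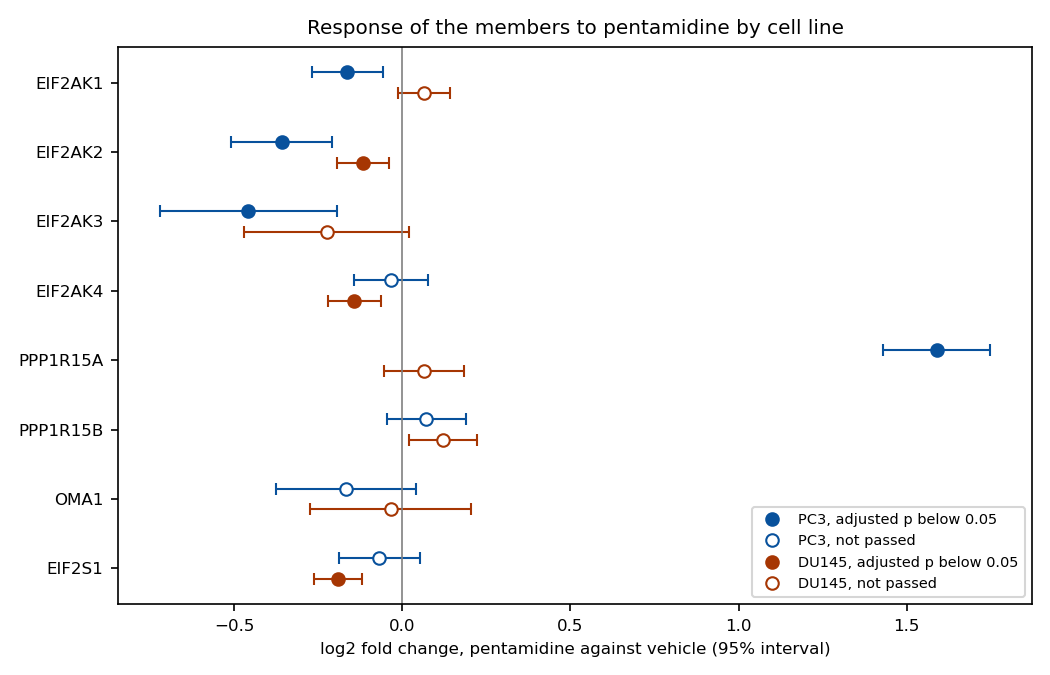
Log2 fold change of pentamidine against vehicle (x axis) with its 95% interval for the 8 members, in PC3 (blue) and DU145 (orange) cells, n = 3 per group. Filled points passed an adjusted p below 0.05 in edgeR's test and open points did not. PPP1R15A in PC3 cells, at 1.59, stands apart from the other 15 values, which lie between -0.46 and 0.12.

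Compared per kilobase of exon, EIF2AK1 was the most abundant kinase transcript in all 4 groups. In vehicle-treated PC3 cells the order was EIF2AK1 (43.7 ± 2.11 CPM per kilobase), EIF2AK4 (19.6 ± 0.906), EIF2AK2 (14.5 ± 0.872) and EIF2AK3 (3.40 ± 0.324), and it was the same in vehicle-treated DU145 cells (32.1 ± 1.09, 20.1 ± 0.536, 14.4 ± 0.258 and 2.39 ± 0.413). The joined exons of EIF2AK2 span 10276 bases, which lowers its level on this scale. By reads not divided by length the order was another one in vehicle-treated DU145 cells, where EIF2AK1 made up 31.6% of the kinase reads, EIF2AK2 32.6% and EIF2AK4 33.3%, and in vehicle-treated PC3 cells the shares were 38.41%, 29.38% and 28.98%. The summed level of the 4 kinases was 81.2 ± 3.67 with vehicle and 71.7 ± 2.06 CPM per kilobase with pentamidine in PC3 cells, and 69.0 ± 0.543 and 66.9 ± 0.539 in DU145 cells. As a share of that sum, EIF2AK4 in PC3 cells went from 24.2% ± 0.411 to 26.7% ± 0.280, and in DU145 cells from 29.2% ± 0.942 to 27.2% ± 0.588. EIF2AK1 held 53.7% ± 0.506 and 54.2% ± 1.48 in PC3 cells, and 46.5% ± 1.32 and 50.0% ± 0.991 in DU145 cells. The shares of EIF2AK4 in both lines, of EIF2AK1 and EIF2AK2 in DU145 and of EIF2AK3 in PC3 reached p = 0.10, the smallest possible, in the exact two-sided permutation test. The shares of EIF2AK1 (p = 0.80) and EIF2AK2 (p = 0.20) in PC3 and of EIF2AK3 in DU145 (p = 0.40) did not by the same exact test.

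OMA1, the protease of the inner mitochondrial membrane, differed between the lines more than with treatment. It had 264, 289 and 253 reads in vehicle-treated PC3 cells and 131, 166 and 143 in vehicle-treated DU145 cells, or 18.4 ± 0.456 and 10.4 ± 1.05 CPM. The groups did not overlap, and the log2 difference was 0.80 with a standard error of 0.11 (adjusted p = 5.99e-06). Pentamidine-treated PC3 cells had 240, 251 and 222 reads (16.4 ± 1.44 CPM), and the highest of these was level with the lowest vehicle sample, both at 17.9 CPM. The log2 fold change of -0.17 did not pass the test (95% interval -0.38 to 0.04, adjusted p = 0.182). In pentamidine-treated DU145 cells it had 144, 146 and 147 reads, a log2 fold change of -0.03 (-0.27 to 0.20, adjusted p = 0.858) that was 0.02 with library size alone. The response did not differ detectably between the lines (interaction -0.13, -0.43 to 0.17, adjusted p = 0.586). DAB1 on the same strand shares 257 bases, or 13.3%, of the OMA1 exons, and its own level was not analysed here.

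EIF2S1, the substrate of the kinases, fell in DU145 cells. It had 2995, 3318 and 3487 reads in vehicle-treated and 2819, 3013 and 2904 in pentamidine-treated DU145 cells, and each treated sample was below each vehicle sample in CPM (232 ± 8.36 against 203 ± 1.70). The decrease was -0.19 on the log2 scale, with a standard error of 0.04 (adjusted p = 2.13e-05), and this call held in the 17 alternatives that gave a p, with adjusted p of at most 0.00239. In PC3 cells it had 2461, 2972 and 2437 reads with vehicle and 2541, 2407 and 2516 with pentamidine. The treated samples lay within the range of the vehicle samples, and the log2 fold change of -0.07 did not pass (-0.19 to 0.05, adjusted p = 0.358). The interaction was 0.12 (-0.01 to 0.26, adjusted p = 0.207). With vehicle, EIF2S1 was lower in PC3 than in DU145 cells, by a log2 difference of -0.39 with a standard error of 0.06 (adjusted p = 1.31e-05). ATP6V1D on the opposite strand shares 269 bases, or 5.13%, of the EIF2S1 exons and had 626 to 998 counts. In edgeR's test ATP6V1D was itself lower in treated DU145 cells (log2 fold change -0.15, adjusted p = 0.021). With vehicle it was lower in PC3 than in DU145 cells (-0.64, adjusted p = 1.11e-07). Its response in PC3 cells was 0.07 (adjusted p = 0.471). Reads in the shared bases cannot be told apart, and their part in the EIF2S1 values was not tested.

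Between the vehicle-treated lines, then, 5 of the 8 members passed, 3 higher in PC3 cells and 2 lower, where 31.5% of the genes tested were higher and 33.8% lower. None of the 8 was past a log2 difference of 1, as 19.2% of genes were. Beside OMA1, PPP1R15A and EIF2S1 these were EIF2AK1 (log2 difference 0.42, standard error 0.05, adjusted p = 1.58e-06) and EIF2AK3 (0.48, standard error 0.13, adjusted p = 0.00313). EIF2AK2 (-0.01, 95% interval -0.12 to 0.10) and EIF2AK4 (-0.06, -0.16 to 0.05) did not pass, and their sign turned with library size alone. The same 5 members passed in all 17 alternatives. By range, with CPM scaled within each comparison, the groups did not overlap for those 5 members (68.8% of genes tested), for 5 of 8 with treatment in PC3 cells (52.2% of genes) and for 4 of 8 in DU145 cells (44% of genes). Across both lines, the test of the difference in response called 1 of 8 members higher in PC3 and 2 lower, against 10.2% and 10.3% of the genes tested.

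The pathway around the members was described with lists of genes, written with earlier results of these data known. Each was read beside the median log2 fold change over all genes tested, 0.0046 in PC3 and 0.0085 in DU145 cells. Downstream, ATF4 and most of its listed targets rose in both lines. In PC3 cells 9 of 10 passed as higher (median log2 fold change 3.27), beside 21.7% of all genes tested. In DU145 cells 8 of 9 tested did so (median 1.66), beside 17.2% of all genes tested. ATF4 itself rose by 1.13 in PC3 (adjusted p = 2.32e-11) and by 0.97 in DU145 cells (adjusted p = 1.12e-31), and a difference between the lines was not shown (0.16, adjusted p = 0.0716). ASNS, the asparagine synthetase, had a log2 fold change of 2.29 in each line. The increases of the stress factor DDIT3 (2.74 and 1.27), of ATF3 (3.79 and 2.41), of CHAC1, which degrades glutathione (3.91 and 2.89), of the stress sensor SESN2 (4.16 and 2.33) and of the pseudokinase TRIB3 (2.40 and 1.66) were larger in PC3 than in DU145 cells by the interaction test. VLDLR, a lipoprotein receptor, rose in PC3 cells (3.84) from 7 to 14 reads to 123 to 153, and the value in DU145 cells was 0.86 (adjusted p = 0.160). The DU145 value rests on 4 to 11 reads with vehicle and 4 to 20 with pentamidine. NUPR1 rose from 8 to 19 to 342 to 381 reads in PC3 cells (log2 fold change 4.91), and had 0 reads with vehicle and 1 to 4 with pentamidine in DU145 cells, where it was too low to be tested. On vehicle samples alone, VLDLR and NUPR1 in PC3 cells and ATF3 in DU145 cells would not have passed the low-count filter. ATF5 was the list's exception, lower in PC3 cells (-0.20, adjusted p = 0.0447) and higher in DU145 cells (0.34). Its PC3 call was near the threshold, and the PC3 groups overlapped with CPM scaled within that comparison.

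**Figure D4:**
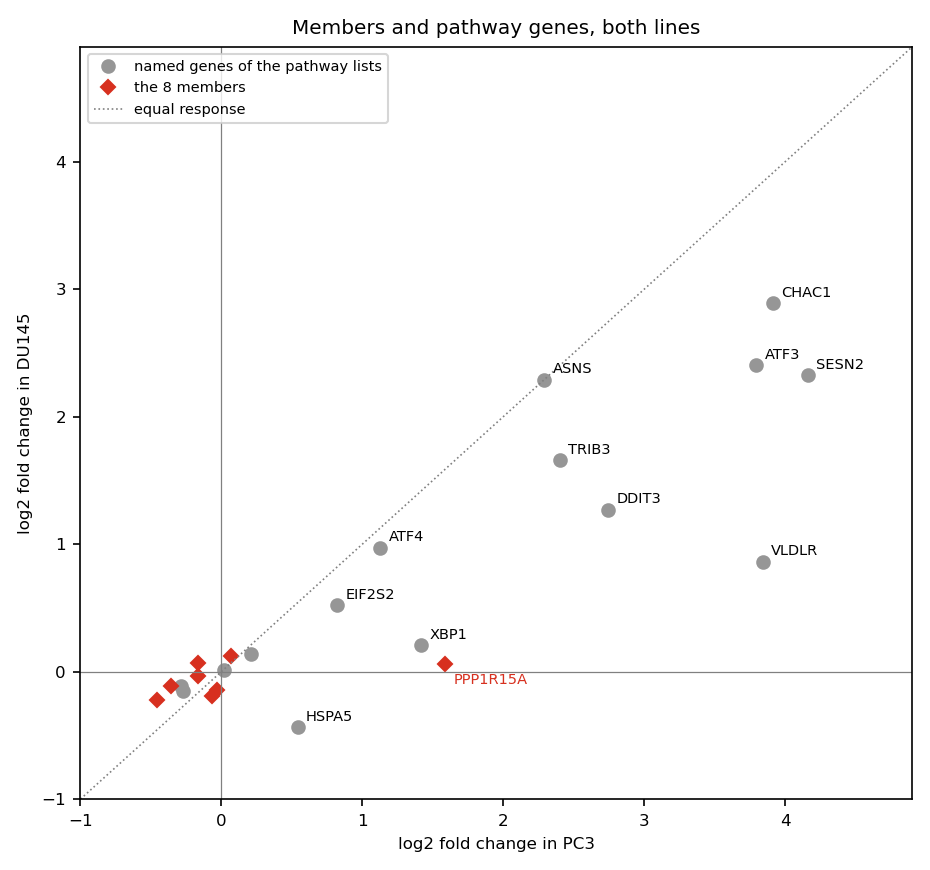
Log2 fold change upon pentamidine treatment in PC3 (x axis) and DU145 cells (y axis) for the 8 members (red diamonds) and the named genes of the pathway lists tested in both lines (grey), with a dotted line of equal response. PPP1R15A lies at 1.59 and 0.06, while ATF4 lies near the dotted line at 1.13 and 0.97 and HSPA5 has opposite signs (0.54 and -0.44).

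Of the regulators of the kinases, HSPA5 (BiP), the chaperone that holds EIF2AK3 inactive, changed in opposite directions. In PC3 cells it went from 1104 ± 4.08 to 1601 ± 41.1 CPM, in DU145 cells from 1017 ± 9.24 to 750 ± 2.55 CPM, log2 fold changes of 0.54 (adjusted p = 3.32e-08) and -0.44 (adjusted p = 1.99e-18) with an interaction of 0.98 (adjusted p = 1.19e-14). In that list 2 of 8 genes were higher and 2 lower in PC3 cells, and 1 higher and 4 lower in DU145 cells (median -0.04 and -0.10). Over all genes tested, 21.7% passed as higher and 21.7% as lower in PC3 cells, and 17.2% and 16.8% in DU145 cells. In the other branches of the ER unfolded protein response, 4 of 6 genes were higher and 1 lower in PC3 cells (median 0.66), and 2 higher and 1 lower in DU145 cells (median 0.02). XBP1, the factor spliced by IRE1, led them in PC3 cells at 1.42 and was at 0.21 in DU145 cells (interaction 1.21, adjusted p = 3.98e-11).

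Among the partners of OMA1, 3 of 8 genes were higher and 2 lower in PC3 cells, and 2 higher and 3 lower in DU145 cells (median -0.04 and -0.06). Beside these counts, 21.7% of all genes tested passed as higher and 21.7% as lower in PC3 cells, and 17.2% and 16.8% in DU145 cells. DELE1, listed under its older name KIAA0141, rose slightly in both lines (0.21, adjusted p = 0.00246, and 0.14, adjusted p = 0.00716). OPA1, the inner membrane fusion protein that OMA1 cleaves, fell slightly in both (-0.27, adjusted p = 0.00102, and -0.15, adjusted p = 0.00295). For neither gene was a difference between the lines shown (adjusted p = 0.515 and 0.261). Of the eIF2 and eIF2B subunits, 3 of 7 were higher and 1 lower in PC3 cells, and 2 higher and 3 lower in DU145 cells (median 0.06 and -0.09). EIF2S2, the beta subunit beside EIF2S1, rose in both lines (0.82, adjusted p = 6.59e-10, and 0.52, adjusted p = 8.33e-20), and more so in PC3 cells (interaction 0.30, adjusted p = 0.000321).

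Of the catalytic subunits of protein phosphatase 1, which the PPP1R15 proteins recruit, PPP1CC fell in both lines (-0.29, adjusted p = 0.000297, and -0.11, adjusted p = 0.0128), and PPP1CB had 0.02 and 0.02 (adjusted p = 0.861 and 0.807). Interferon-stimulated genes were chosen as a reference for EIF2AK2, which belongs to that class. In PC3 cells 2 of the 9 tested were higher and 4 lower (median -0.21), and in DU145 cells 2 of the 6 tested were lower (median -0.22) and edgeR called 0 higher, also at an unadjusted p below 0.05. The shares over all genes tested, at an adjusted p below 0.05, were 21.7% higher and 21.7% lower in PC3 cells, and 17.2% and 16.8% in DU145 cells. IFIT3 rose in PC3 cells (1.78, adjusted p = 0.000561), from 7 to 10 reads to 21 to 37. It would not have passed the low-count filter on its vehicle samples alone. In DU145 cells IFIT3 had 3 to 9 reads with vehicle and 6 to 11 with pentamidine, and was too low to be tested. The counts of higher genes in the lines therefore depend on the filter. For the other scalings, the fold changes of list genes that passed were only shifted by the median shift over all genes tested. No direction turned, but these shifts were small (-0.018 to 0.050 on the log2 scale), so few could have. Relative to ACTB, by the same kind of shift, only the direction of GCN1 in DU145 cells turned.

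The genes whose pattern over the 12 samples was nearest to that of a member were sought for the members of widest span, with the root mean square difference of centred log2 CPM over 15225 genes. PPP1R15A, whose group means spanned 1.58 on the log2 scale, was nearest to CTAGE5 (0.177), TUFT1 (0.201) and GLIDR (0.211), where the median gene was at 0.661. These 3 genes had a log2 response of 1.31 to 1.79 in PC3 and of 0.40 to 0.46 in DU145 cells. OMA1, with a span of 0.86, was nearest to VBP1 (0.064), FUNDC2 (0.077) and MORF4L2 (0.078), where the median gene was at 0.494. Their log2 differences between the vehicle-treated lines were 0.75 to 0.80, beside 0.80 for OMA1. The genes nearest to PPP1R15A and OMA1 were picked for likeness over these same samples, so their like values follow from that choice.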

How the data were processed

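RNA of the 12 samples was selected with Oligo(dT), and the authors deposited whole-number counts of reads per gene, made per the labels' processing notes with HISAT2 2.1.0 and GRCh38. The counting program and its use of strand are not given in the sources used here. A deposited table of normalized values repeats these counts scaled to the library total, and 2 tables hold the authors' own fold changes and p-values. Neither was used, nor was DESeq 1.18.1, the submitters' tool. Of 33595 entries with an Ensembl identifier, those with the same name and identical counts were merged, leaving 32077 genes. The 44 lines without an identifier were left out.

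Counts were tested with edgeR 4.0.16 (R 4.3.3) by the quasi-likelihood test, with TMM scaling, the filterByExpr filter (minimum count 10) and Benjamini-Hochberg adjustment over all genes tested. Passed means an adjusted p below 0.05. The edgeR script was tested on simulated data. Each line was tested on its 6 samples, the vehicle groups on theirs, and the difference in response as the interaction over 12. Alternatives were DESeq2 1.42.0, limma 3.58.1, other scalings and filters, a replicate block, a threshold of 0.01 and each sample left out. The limma fits were scaled by library size alone, without TMM factors. Exact permutation tests used scipy 1.17.1. Exon lengths and overlaps came from GENCODE release 29.

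The members and lists were chosen with earlier results of these data known. Named from the lists were ATF4, DDIT3, HSPA5, OPA1, DELE1 and EIF2S2, genes past a log2 fold change of 1 in either line, and otherwise the 2 of largest mean change. ATF5, GCN1, CDH1 and KRT19 were named after their values were seen. A few other marker genes are not reported here. Replicates always differed beyond sampling noise (mean chi-square per gene 1.68 to 6.70).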

Additional observations from a re-analysis of the deposited data

Results flagged for a closer look

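The response to pentamidine differed between the lines, by the interaction test in edgeR at an adjusted p below 0.05, for 3 of the 8 members. Of all genes tested, 10.2% passed that test as higher in PC3 cells and 10.3% as lower. The response in PC3 minus that in DU145 cells was 1.53 on the log2 scale for PPP1R15A, -0.23 for EIF2AK1 and -0.24 for EIF2AK2, the last of which was lost under DESeq2, RLE scaling and most fits with a sample left out. PPP1R15A started lower in vehicle-treated PC3 cells than in vehicle-treated DU145 cells and ended higher.

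Among the named genes of the pathway the same difference was 0.98 for HSPA5 and 1.21 for XBP1. All 3 treated samples lay above all 3 vehicle samples for HSPA5 in PC3 cells, and below them in DU145 cells. The difference was 2.98 for VLDLR, 1.83 for SESN2, 1.47 for DDIT3, 1.39 for ATF3, 1.02 for CHAC1, 0.74 for TRIB3 and 0.30 for EIF2S2. For ATF5, named after its values were seen, it had the other sign (-0.54, edgeR's interaction test, adjusted p = 0.000217). The value of VLDLR had a standard error of 0.62, and its DU145 samples had only 4 to 11 reads with vehicle and 4 to 20 with pentamidine. The cause of these differences was not tested.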

How the results depend on the processing

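Between the vehicle-treated lines 5 members passed in every alternative, with 5 to 5 when a sample was left out. With a sample left out the number that passed ranged from 3 to 4 in PC3 cells, from 2 to 5 in DU145 cells (5 without the second DU145 vehicle sample) and from 2 to 3 for the difference in response. Other settings gave 3 to 4, 2 to 3 and 2 to 3. PPP1R15A in PC3 cells had a log2 fold change of 1.52 to 1.79 over its 18 alternatives, and the log2 change of its ratio to PPP1R15B was 1.45 to 1.57 with a sample left out.

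Several values near 0 turned sign. In DU145 cells OMA1 was 0.015 with library size alone, 0.018 and 0.020 with limma on log2(CPM + 1) and log2(CPM + 0.1), and -0.084 to 0.052 with a sample left out (0.052 without the second vehicle sample). Relative to ACTB, in PC3 cells EIF2AK1 was 0.035, EIF2AK4 0.164, EIF2S1 0.133 and OMA1 0.027, in DU145 cells OMA1 was 0.058, and between the vehicle-treated lines EIF2AK2 was 0.251, EIF2AK4 0.202 and PPP1R15B 0.230. The difference in response of PPP1R15B was -0.106 to 0.021 with a sample left out (0.021 without the first DU145 vehicle sample). Between the vehicle-treated lines, library size alone and both limma fits gave 0.071, 0.069 and 0.069 for EIF2AK2, 0.020, 0.020 and 0.020 for EIF2AK4, and 0.043, 0.047 and 0.048 for PPP1R15B. EIF2AK2 was also 0.0086 with no filter on low counts, 0.016 with all 12 samples in one fit and -0.026 to 0.052 with a sample left out (0.052 without the third PC3 vehicle sample). PPP1R15B was -0.100 to 0.027 with a sample left out (0.027 without the second DU145 vehicle sample). By counts without length, the share of EIF2AK4 in PC3 cells rose by 3.24 percentage points in place of 2.47. The cause of the sign changes other than those relative to ACTB was not tested.

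Samples with the same replicate number did not deviate together (correlations -0.317 to 0.11), so the numbers were not taken as pairs. With the replicate block, 4, 3, 3 and 5 members passed in PC3 cells, DU145 cells, the difference in response and the vehicle-treated lines, as without it. Low counts, 131 to 289 per sample for OMA1 and 136 to 268 for EIF2AK3, limit what could be detected for these genes.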
